A study of Rattus norvegicus with 4 samples.

Results

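Slc38a2 and Slc38a3 encode sodium-coupled amino acid transporters of the SLC38 family. They are 2 of the 958 genes to which probes of a rat cDNA array could be assigned, and each was represented by 5 probes, 10 in all. Probes were included if the platform annotation gave either symbol alone, whatever their ratio. The pair of genes itself was selected on measured values, because 1 probe of each had passed 2-fold in these data while the others had not. Its ratios, and the spread between the probes of each gene, are therefore a description, with no test.

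The arrays compared liver RNA of male Sprague-Dawley rats 18 h after an intraperitoneal injection of alpha-naphthylisothiocyanate (ANIT, 75 mg/kg) with that of rats given olive oil alone, the vehicle. ANIT injures bile duct cells and obstructs bile flow in rats. RNA of 3 rats per treatment was pooled, and the single pair of pools was hybridised to 4 arrays. The ANIT pool carried Cy5 on arrays 1 and 3; the dyes were swapped on arrays 2 and 4. The treatment thus had 1 replicate, and the spread between arrays describes hybridisation alone. In bulk RNA, fewer cells of a type and less RNA per cell cannot be told apart.

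The protein of Slc38a2, SNAT2, carries system A transport. It brings small neutral amino acids such as alanine into the cell together with sodium, and it is found in many tissues. Its gene is known to respond to amino acid shortage through the transcription factor ATF4, and to hypertonic stress. The protein of Slc38a3, SNAT3, carries system N transport of glutamine, histidine and asparagine. It exchanges these with sodium against protons and can run in both directions. In liver, system N is known for glutamine handling, together with the urea cycle and glutamine synthesis.

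All values are log2 ratios, ANIT over olive oil. The direction is the likely one, based on the sample titles and the order of the channels, and the base of the log was taken as 2. Ratios were read as deposited, and again after each array was centred on the median of its 1936 probes. The medians were -0.53 and -0.53 with ANIT in Cy5, and 0.85 and 0.83 with ANIT in Cy3. Across probes, which are not independent replicates, arrays of the same orientation correlated with Pearson's r of 0.958 to 0.979. Arrays of opposite orientation correlated with r of -0.383 to -0.370. The sign of a ratio on a single array therefore depends on the dye for most probes: 26.9% of all probes had the same sign on all arrays as deposited, and 13.6% after centring. Mean ratios were taken over both orientations, and each ± is the SD between arrays of an orientation, pooled over both (n = 4 arrays). The number of arrays limits the precision.

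For Slc38a2, clone BE118299 stood apart from the other 4 clones. As deposited it had 1.47, 2.11, 1.60 and 1.96 on arrays 1 to 4. After centring these became 1.996, 1.26, 2.13 and 1.13. Every array placed it above 1, the log2 of 2-fold, with or without centring. Its mean centred ratio was 1.63 ± 0.095 (3.10-fold), the 10th highest of all 1936 probes.

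Clone AW433877 was next, at 0.64, 0.69, 0.55 and 0.60 as deposited. These 4 values lie close together and on one side of 0. Centring moved them to 1.17, -0.15, 1.08 and -0.23, so that the sign followed the dye. The mean centred ratio was 0.47 ± 0.060 (1.38-fold).

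Clone AI454478 had 0.12, 0.61, 0.17 and 0.50 as deposited, again above 0 on every array. Its centred values were 0.65, -0.24, 0.70 and -0.33, with a mean of 0.20 ± 0.054 (1.15-fold).

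The remaining pair of Slc38a2 clones was dominated by the dye. AA858837 had -1.24, 1.59, -1.29 and 1.41 as deposited, and its mean after centring was -0.034 ± 0.081. AA817781 had -1.20, 1.06, -1.14 and 1.12, with a mean after centring of -0.19 ± 0.049. Both clones lay below 0 with ANIT in Cy5 and above 0 with ANIT in Cy3, with and without centring.

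For Slc38a3, clone AI716308 stood apart in the same way. It had 1.66, 1.72, 1.41 and 1.69 as deposited, with almost no difference between orientations. After centring it had 2.19, 0.87, 1.94 and 0.86, all above 0 but under 1 with ANIT in Cy3. The mean centred ratio was 1.47 ± 0.12 (2.76-fold), the 14th highest of all probes.

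The other 4 Slc38a3 clones lay close together as deposited. AW521958 had 0.62, 0.47, 0.44 and 0.54 as deposited, and AW524832 had 0.54, 0.41, 0.66 and 0.42. AI502846 had 0.75, 0.30, 0.60 and 0.34, and AA859068 had 0.31, 0.44, 0.39 and 0.39. All of these single-array values were above 0 as deposited, between 0.30 and 0.75, and none reached 2-fold before centring.

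Their mean centred ratios were 0.37 ± 0.10, 0.36 ± 0.065, 0.34 ± 0.079 and 0.23 ± 0.043 in the same order. These 4 means lie between 1.17-fold and 1.29-fold, and the first 3 are not separated by their hybridisation error. On single centred arrays these clones were above 0 with ANIT in Cy5 and below 0 with ANIT in Cy3. With ANIT in Cy5, single centred values of AW521958, AW524832 and AI502846 passed 2-fold, at up to 1.15, 1.19 and 1.28.

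**Figure D1:**
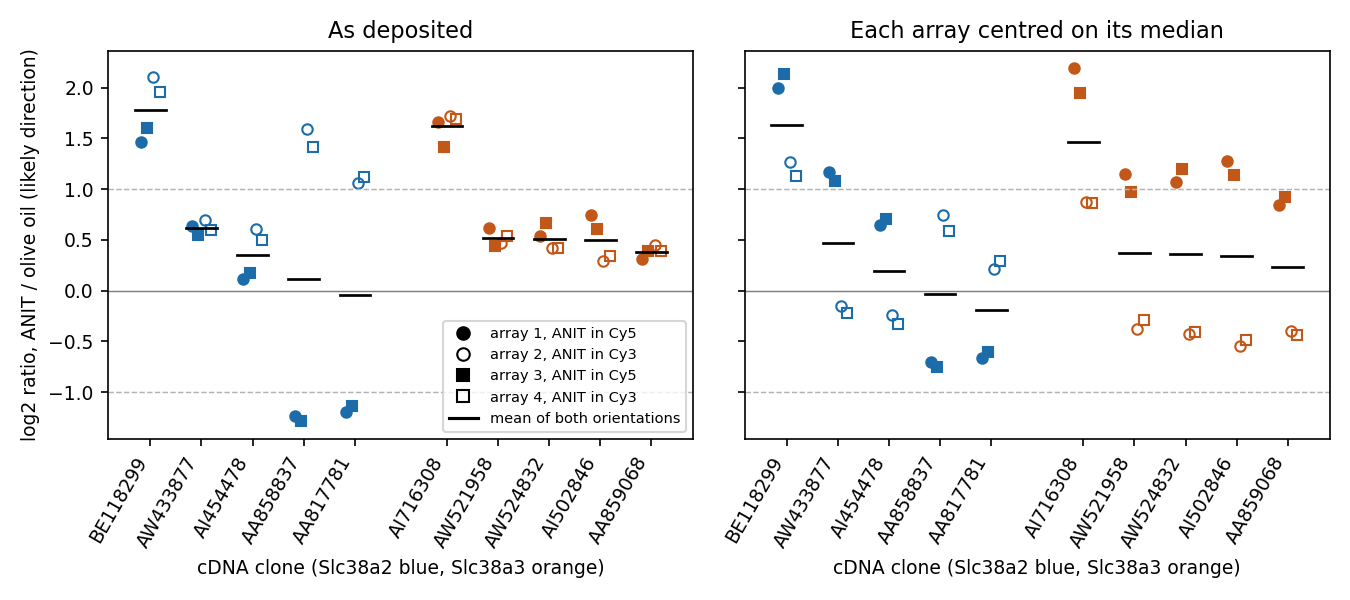
Log2 ratio, ANIT over olive oil (y axis), of the 5 Slc38a2 clones (blue) and 5 Slc38a3 clones (orange) on each of 4 arrays, as deposited on the left and centred on the right. Filled marks have ANIT in Cy5 and open marks in Cy3, black bars are means of both orientations and dashed lines are 2-fold. BE118299 and AI716308 lie above the other clones of their gene on every array, and AA858837 and AA817781 change sign with the dye.

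A probe was counted as 2-fold apart if its mean centred ratio was at least 1 in size and all 4 centred arrays had the same sign. Of the 10 probes of both genes, BE118299 and AI716308 were counted, both as higher, and 0 as lower. Of all 1936 probes, 30 (1.55%) were counted as higher and 18 (0.93%) as lower. Nothing is read from this share, since those ratios were the reason for the choice of the genes. Of the 10 probes, 8 had the same sign on all arrays as deposited: 3 of Slc38a2 and 5 of Slc38a3.

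The gap between the leading clone and its neighbours does not depend on where an array is centred, because any constant cancels. BE118299 exceeded AW433877 by 0.83, 1.42, 1.06 and 1.36 on arrays 1 to 4. AI716308 exceeded AW521958 by 1.04, 1.25, 0.97 and 1.15. These neighbours are next by their mean, and the mean gaps were 1.16 and 1.10. On single arrays another clone could lie closer. Above the highest other clone of that array, BE118299 stood by 0.83, 0.52, 1.06 and 0.54 and AI716308 by 0.91, 1.25, 0.75 and 1.15. On arrays 2 and 4 the clone closest to BE118299 was AA858837, which was high there with ANIT in Cy3. These gaps follow from the choice of the genes and were not tested.

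Averaged over its 5 probes, Slc38a2 had centred ratios of 0.49, 0.37, 0.51 and 0.29 on arrays 1 to 4, with a mean of 0.41 ± 0.040 (1.33-fold). It was above 0 on every centred array and ranked 63rd of 958 genes from the highest. Of its clones, BE118299 alone was above 0 on every centred array. AW433877 and AI454478 were below 0 with ANIT in Cy3, and AA858837 and AA817781 with ANIT in Cy5. Slc38a3 had 1.31, -0.18, 1.23 and -0.15, with a mean of 0.55 ± 0.039 (1.47-fold), the 44th highest. Its gene mean changed sign with the dye after centring, although all of its probes were above 0 on all arrays as deposited. Of the Slc38a3 clones, AI716308 alone stayed above 0 on every array after centring.

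Neither gene was counted as 2-fold apart. Among all 958 genes, 12 (1.25%) were counted as higher and 11 (1.15%) as lower. The gene means rested heavily on the leading clones. Without BE118299, the other 4 Slc38a2 probes averaged 0.11 ± 0.031 (1.08-fold). That average includes AA858837 and AA817781, which were dominated by the dye, beside AW433877 (0.47) and AI454478 (0.20). Without AI716308, the other 4 Slc38a3 probes averaged 0.32 ± 0.023 (1.25-fold). These values were computed after the ratios were seen. Medians over the 5 probes, taken on each array and then averaged, were 0.46 for Slc38a2 and 0.37 for Slc38a3. For Slc38a2 the middle clone changed with the dye: AI454478 on arrays 1 and 3, and AA817781 on arrays 2 and 4. By mean ratio over both orientations the middle clones were AI454478 (0.20) and AW524832 of Slc38a3 (0.36). The order of the genes thus turned with the medians on each array, but not with these middle clones.

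Systems A and N were set side by side by subtracting the Slc38a3 ratio from that of Slc38a2 on each array. For gene means the difference was -0.82, 0.54, -0.72 and 0.44, with a mean of -0.14 ± 0.070. Its sign followed the dye, so these arrays do not order the genes. For medians over probes on each array the difference was 0.095 ± 0.054. It was again below 0 with ANIT in Cy5 and above 0 with ANIT in Cy3. The Slc38a2 median came from AI454478 with ANIT in Cy5 and from AA817781 with ANIT in Cy3. That difference therefore compares no fixed pair of clones.

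Between the leading clones, BE118299 less AI716308, the difference was -0.19, 0.39, 0.19 and 0.27. The mean was 0.16 ± 0.20, and array 1 had the opposite sign to the other arrays. AW433877 and AI454478, the Slc38a2 clones with the smallest dye differences after BE118299 was set aside, were also compared with the 4 lower Slc38a3 clones. Their difference was -0.18, 0.24, -0.16 and 0.13, with a mean of 0.0073 ± 0.059. That choice of clones was made after their values were seen.

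The dye difference of a probe, the mean with ANIT in Cy5 less that with ANIT in Cy3 as deposited, had a median of -1.25 over all probes. AA858837 and AA817781 had -2.77 and -2.26, in the first of 4 bins of 484 probes ordered by this difference, the most negative one. In that bin 0 probes were counted in either direction, and mean ratios had an SD of 0.061 around a median of -0.12. A ratio near 0 from these Slc38a2 clones therefore says little. Spot intensity was not analysed here, and its part in this was not tested.

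The other 8 clones had dye differences between -0.50 and 0.36. BE118299 (-0.50) and AI454478 (-0.41) lay in the third bin, where 15 probes were counted as higher and 7 as lower. AW433877 (-0.054) and all 5 Slc38a3 clones (-0.17 to 0.36) lay in the fourth, where 12 were higher and 10 lower. BE118299 shared its bin with AI454478, and AI716308 with the other Slc38a3 clones, whose mean ratios stayed under 2-fold. The part of the dye difference in the gaps between clones was not tested. A strongly negative dye difference went with low ratios for 2 of the Slc38a2 clones and for no Slc38a3 clone.

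**Figure D2:**
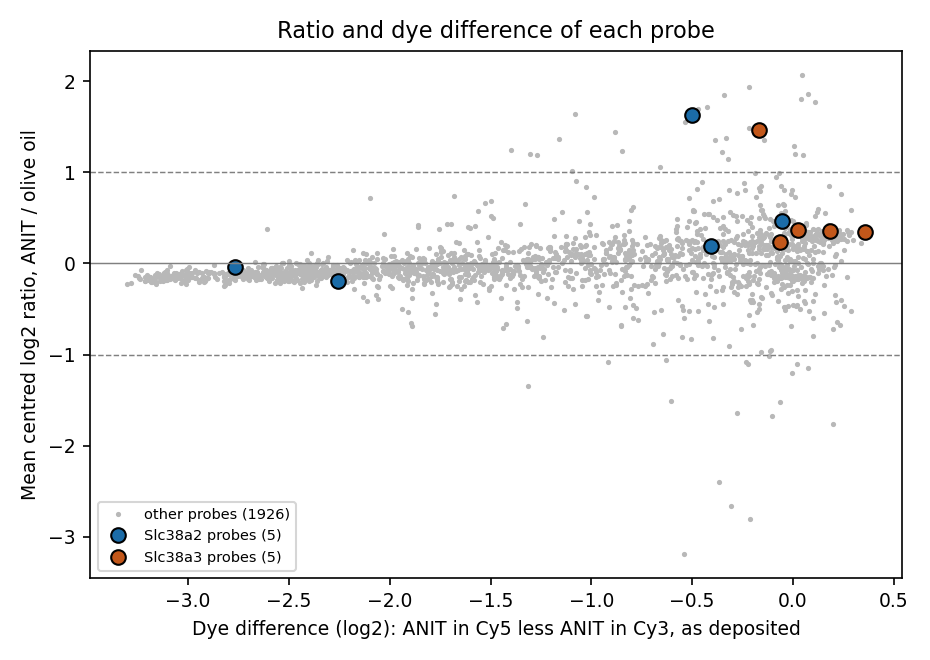
Mean centred log2 ratio, ANIT over olive oil (y axis), against the dye difference on the log2 scale (x axis) for 1926 other probes (grey), 5 Slc38a2 probes (blue) and 5 Slc38a3 probes (orange), with dashed lines at 2-fold. Grey ratios narrow towards the left, where 2 Slc38a2 clones lie at -2.77 and -2.26, and all Slc38a3 clones lie at the right.

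How far the probes of a gene lay apart is given beside the other genes that had several. A wide spread was fixed by the choice of Slc38a2 and Slc38a3, so their places are a description and nothing is read from them. Over 340 genes with at least 2 probes, the highest less the lowest mean ratio had a median of 0.14. It was 1.82 for Slc38a2, the third widest, and 1.24 for Slc38a3, the seventh widest. The widest were Car2 (2.51) and Wt1 (2.10), which had 2 probes each. In 10 of the 340 genes (2.94%), some but not all probes were counted as 2-fold apart, which include Slc38a2 and Slc38a3 by their choice.

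More probes leave more room for a wide spread. Among the 18 genes with at least 5 probes, the median spread was 0.61, and Slc38a2, Por (1.80) and Slc38a3 were the 3 widest, the SLC38 genes again by their choice. Por, the reductase that supplies cytochromes P450 with electrons, had 3 of 5 probes counted. The next widest was Cdk1, a cell cycle kinase, at 0.81. The clones carry a gene symbol from the platform annotation and a sequence identifier, and their sequences were not used here. Where in the transcript each clone lies, and which other transcripts it could bind, was not tested.

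**Figure D3:**
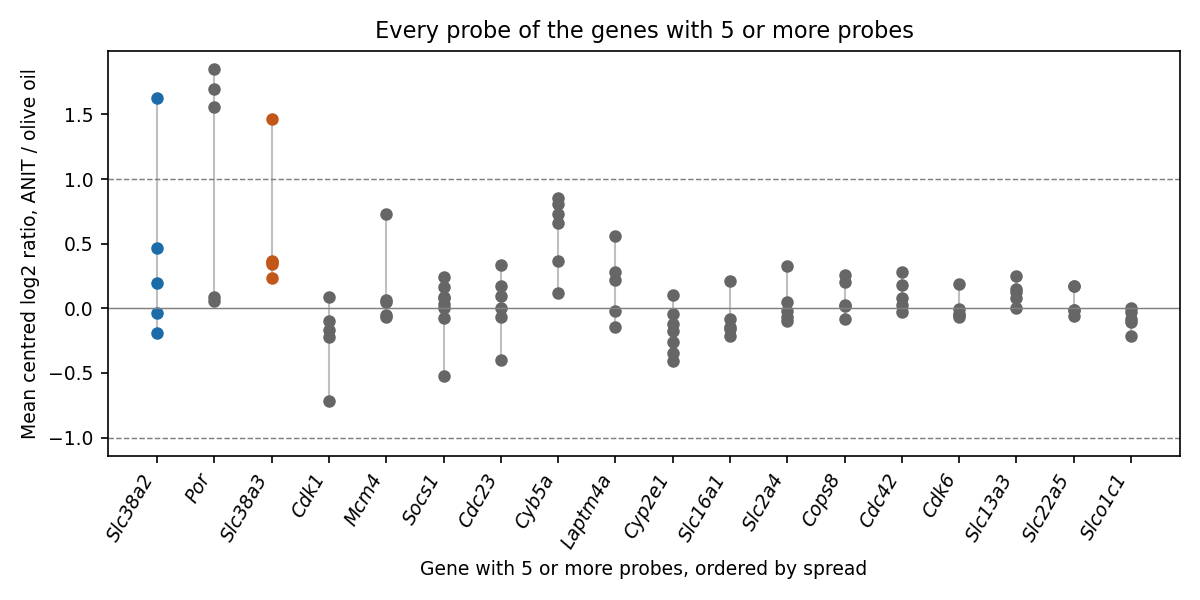
Mean centred log2 ratio, ANIT over olive oil (y axis), of every probe of the 18 genes with 5 or more probes (x axis, widest spread first), with dashed lines at 2-fold. Slc38a2 and Slc38a3 each have 1 point above the upper line and 4 below it, and Por has 3 above.

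Of 41 listed amino acid carriers of the plasma membrane, 10 were measured, and 0 were counted in either direction. Slc38a3 and Slc38a2 had the highest ratios of the 10, and the median was 0.016, or -0.014 without them, against -0.040 over all 958 genes. Slc7a1, which carries cationic amino acids, followed at 0.070 ± 0.17. The glutamate transporter genes Slc1a2 and Slc1a1 had 0.049 ± 0.060 and -0.083 ± 0.14. Slc1a5, a further carrier of glutamine and other neutral amino acids, had 0.040 ± 0.22.

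The light chain genes Slc7a7 and Slc7a5, whose proteins form exchangers with a shared heavy chain, had -0.0079 ± 0.060 and -0.019 ± 0.044. Slc6a18 had -0.11 ± 0.10, and Slc3a1, which encodes the heavy chain of a cystine and basic amino acid exchanger, had -0.30 ± 0.16. Slc3a1 was the 1 gene of these 8 below 0 on all centred arrays. The dye differences of the 8 ran from -2.60 to -1.29, so that ratios near 0 lie partly where ratios were narrow and say little about these carriers. Slc38a4, the other system A gene of liver, was not analysed here. Of 8 listed mitochondrial amino acid carriers, 0 were measured.

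Because Slc38a2 is a known target of ATF4, 30 genes of the amino acid response were listed, of which 9 were measured. None was counted as 2-fold apart, 7 had mean ratios above 0, as did 395 of all 958 genes, and their median was 0.13 against -0.040 over all genes. Asns, the asparagine synthetase, was highest, with 0.36, 0.72, 0.15 and 0.48 on centred arrays 1 to 4 and a mean of 0.43 ± 0.16. Trib3, a pseudokinase gene activated by ATF4, had 0.30, 0.42, 0.062 and 0.72, with a mean of 0.37 ± 0.19. Both genes were above 0 on every centred array, as were Gadd45a of the same list and the Slc38a2 gene mean. Of the 5 Slc38a2 clones only BE118299 was, and 13.6% of all probes had the same sign on all centred arrays. Asns and Trib3 each rested on 1 probe, and their means ranked 59th and 76th of 958. Their dye differences were -1.71 and -1.75, in the second bin. There 3 of 484 probes were counted as higher and 1 as lower, and mean ratios had an SD of 0.21.

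Ddit3, the transcription factor CHOP, had 0.18 ± 0.11, and Phgdh, the first enzyme of serine synthesis, had 0.14 ± 0.029. Gadd45a, a growth arrest gene, had 0.13 ± 0.041. Vegfa stood at 0.044 ± 0.14 and Igfbp1, an insulin-like growth factor binding protein gene, at -0.040 ± 0.041. Slc7a1 and Slc7a5, given above, also belong to this list. Sgk1 and Aqp1 were the measured members of 10 osmotic response genes, and 0 were counted. Sgk1, a kinase gene induced by cell shrinkage, had -0.44, -0.54, -0.45 and -0.43 on centred arrays 1 to 4, with a mean of -0.47 ± 0.053. Its 4 probes ran from -0.89 to -0.033. The water channel gene Aqp1 had -0.0077 ± 0.064.

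**Figure D4:**
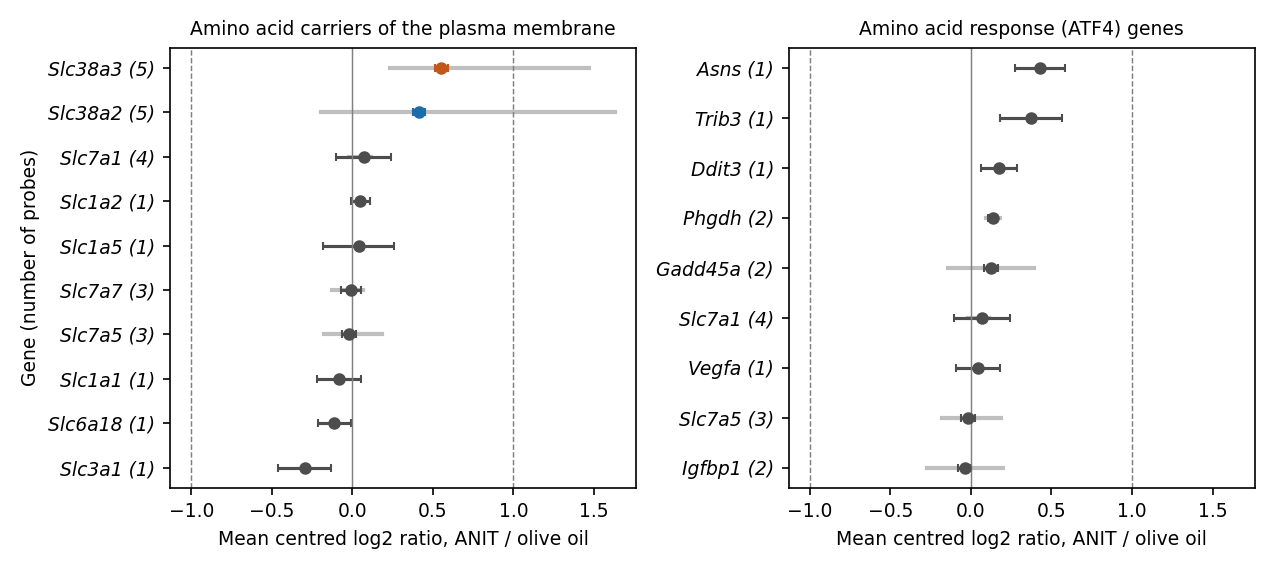
Mean centred log2 ratio, ANIT over olive oil (x axis), of 10 amino acid carrier genes (left) and 9 amino acid response genes (right), with the number of probes in parentheses. Points are gene means with the SD within dye orientation, grey bars run from the lowest to the highest probe and dashed lines are 2-fold. Slc38a2 and Slc38a3 have the highest means of the carriers and the widest grey bars of either panel.

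Few enzymes that use the amino acids carried by both systems were measured. Of 17 listed genes of glutamine, ammonia and urea metabolism, Got1, the cytosolic aspartate aminotransferase, was the 1 measured, at -0.54 ± 0.43 with a wide hybridisation error. Of 34 genes of amino acid breakdown, 4 were measured and 0 counted, with a median of -0.051. Bckdk, the kinase that inhibits branched-chain ketoacid oxidation, had -0.37 ± 0.15. Gcdh, an enzyme of lysine and tryptophan breakdown, had 0.17 ± 0.083. Agxt, the alanine-glyoxylate aminotransferase, had -0.087 ± 0.080, and Fah, the last enzyme of tyrosine breakdown, had -0.015 ± 0.079.

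The genes nearest to Slc38a2 in their 4 centred ratios were Rbm10, Hnrnpa1 and Pde4dip, with root mean square differences of 0.12, 0.13 and 0.15. Those nearest to Slc38a3 were Rxrg (0.078), Ece1 (0.085) and Fkbp1a (0.086). The measure spans 4 arrays of 1 pair of pools and follows the dye as well as the ratio. For single clones, examined after the values were seen, the probe closest to BE118299 was one of Sqstm1, with a mean of 1.71. The probe closest to AI716308 was one of Stat3, with a mean of 1.36.

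Ratios give no level, so the labelled tissue could not be checked against its markers, and neither could the levels of system A and system N. Of 13 hepatocyte markers, 10 were measured with a median of -0.19, from -0.68 for Apoa1 to 0.79 for Fgg. Slc10a1, a bile acid uptake transporter gene, had -0.51. Of 9 perivenous markers, which mark the zone around the central vein where system N is linked to glutamine synthesis, 4 were measured. Among these Cyp1a2, a drug-metabolising enzyme gene, was counted as higher at 2.005. Cyp7a1, a bile acid synthesis gene, had -0.49, Cyp2e1 -0.18 and Slc1a2 0.049. Pck1, at 0.34, was the 1 measured gene of 10 periportal markers.

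Markers of other cell types lay within 2-fold. Of 10 cholangiocyte markers 2 were measured, Clu at 0.34 and Spp1 at -0.12. Of 9 neutrophil markers S100a9 was measured, at 0.038, and of 7 macrophage markers 0 were. Of 10 stellate cell and fibroblast markers 4 were measured, including Col1a1 (-0.58), Fn1 (0.38) and Vim (0.19). Of 9 endothelial markers 4 were measured, with Kdr lowest at -0.25, Cdh5 at -0.21 and Tek at -0.038. The part of these cells in the ratios of Slc38a2 and Slc38a3 was not tested. Of the housekeeping genes spotted as controls, Hprt1 had 0.086 ± 0.027 and Actb 0.040 ± 0.068.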

How the data were processed

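Per the labels' protocols, RNA of 3 rats per treatment was pooled, poly(A) RNA was labelled with Cy3 or Cy5, and 4 arrays form a technical dye swap of 1 pair of pools. The deposited values are log ratios, taken as log2; no source used here states their log base, direction, background correction or normalization. The table held 1936 probes with 0 missing values. Of these, 1432 had a single symbol, 19 had several and 485 were not listed in the platform annotation; symbols were updated through Entrez identifiers to RefSeq (GRCr8) for 1429, giving 958 genes. As no build is named, no coordinates are given.

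Arrays were centred on their medians, which lowered every mean ratio by 0.15. Probes of a gene were averaged, and a mean per dye orientation was taken before the mean of both. Counted were ratios of at least 2-fold with the same sign on all 4 arrays. With 1 replicate of the treatment, no test was made.

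Alternatives were centring (none, Hprt1 and Actb, or the 101 probes nearest in dye difference), medians over arrays or probes, 1 probe per gene by lowest SD within dye orientation, 1 orientation, arrays left out, the sign turned, a Cy5 over Cy3 reading, natural logs, 1.5-fold and 3-fold, and the sign rule on orientation means. Members and lists were chosen with earlier results of these data known. Named were all 10 probes, every measured carrier, list members by size of ratio (counted ones, then up to 5, or 3 for cell types), the 3 nearest genes, the 3 genes with the widest probe spread, Hprt1 and Actb. Por, Cdk1, Sqstm1 and Stat3, and further members of the amino acid response list, were named after their values were seen. Python 3.11.15, numpy 2.4.6, pandas 2.3.3 and matplotlib 3.10.9 were used.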

Additional observations from a re-analysis of the deposited data

Results flagged for a closer look

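Among 65 sets of 4 centred ratios examined, those of the 10 probes and both genes and of the other listed, nearest and housekeeping genes, 2 had 1 array far from the others. Chance marks about 1 in 20 sets of 4 like arrays, a rate that does not carry over to arrays in dye pairs. Gadd45a, of the amino acid response list, had 0.064 on array 2 against 0.15, 0.14 and 0.15 on arrays 1, 3 and 4. Pck1, of the periportal list, had 0.80 on array 3 (0.799) against 0.25, 0.17 and 0.16 on arrays 1, 2 and 4. None of the 12 sets of Slc38a2 and Slc38a3 stood out in this way.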

How the results depend on the processing

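Leading clones: BE118299 passed 2-fold in 12 of 13 settings and AI716308 in 11, as lower with the sign turned. Their ratios were the reason for the choice of the genes, so nothing is read from these counts. The turned sign and natural logs could not bring either clone under 2-fold. Read as Cy5 over Cy3, BE118299 and AI716308 had 0.43 and 0.60. AI716308 also missed with ANIT in Cy3 alone (0.87). With the sign turned the leading clones had -1.63 and -1.47. With ANIT in Cy5 alone, AW433877 of Slc38a2 (1.12) also passed 2-fold. So did AW521958 (1.06), AW524832 (1.13) and AI502846 (1.21) of Slc38a3. These are centred values. As deposited, the means with ANIT in Cy5 were 0.59, 0.53, 0.60 and 0.68 in the same order, all under 2-fold.

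Gene ratios are given as Slc38a2, then Slc38a3, main values 0.41 and 0.55. They were 0.57 and 0.70 without centring, and 0.35 and 0.49 on Hprt1 and Actb. With ANIT in Cy5 alone they were 0.50 and 1.27, and in Cy3 alone 0.33 and -0.16. They were -0.41 and -0.55 with the sign turned, 0.085 and 0.72 as Cy5 over Cy3, and 0.60 and 0.80 with natural logs. As medians over probes on each array, they were 0.46 and 0.37. From the probe with the smallest SD, they were -0.19 and 0.23. Without the leading clone, a setting added after the data were seen, they were 0.11 and 0.32. Centred on probes of like dye difference, Slc38a3 had 0.44. Its lower clones were further apart in that setting: AW521958 had 0.46, AA859068 0.22, AW524832 0.11 and AI502846 0.086.

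The difference of systems A and N (-0.14) was -0.035 on probes of like dye difference, and -0.77 and 0.49 with ANIT in Cy5 or Cy3 alone. It was 0.14 turned, -0.63 as Cy5 over Cy3, 0.095 for medians over probes on each array and -0.42 for single probes. Leaving out each array gave -0.16 to -0.11 for it, 0.39 to 0.43 for Slc38a2 and 0.53 to 0.57 for Slc38a3.

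Counts are given as probes higher and lower, then genes higher and lower. They were 172, 63, 59 and 7 with ANIT in Cy5 alone, and 17, 66, 6 and 36 in Cy3 alone. They were 0, 0, 0 and 0 as Cy5 over Cy3, 55, 30, 27 and 16 with natural logs, 63, 41, 34 and 21 at 1.5-fold, and 10, 7, 3 and 4 at 3-fold. Without centring they were 38, 11, 17 and 7, and turned 18, 30, 11 and 12. By construction, turning the sign swaps higher and lower, natural logs rescale every ratio, and 1.5-fold and 3-fold only move the cut. The causes of the other shifts were not tested.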
